A study of Mus musculus with 9 samples.

Results

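The 10 genes described here encode the enzymes that attach lipoic acid to mitochondrial proteins, the enzyme complexes that carry it, and ferredoxin 1. They were chosen by symbol (Fdx1, Lias, Lipt1, Lipt2, Dld, Dlat, Dlst, Gcsh, Pdha1 and Pdhb), and all 10 were found among the 21878 symbols of the count table. Lipoic acid is a sulfur-containing cofactor built on the proteins themselves. An octanoyl chain made by mitochondrial fatty acid synthesis is placed on the glycine cleavage H protein, receives sulfur from an iron-sulfur enzyme, and is passed on to the E2 subunits of the 2-oxoacid dehydrogenases. In cuproptosis, a form of cell death described in human cell lines, copper binds lipoylated proteins, which aggregate, and iron-sulfur proteins are lost. Hepatocytes that lack Atp7b, the copper-exporting ATPase mutated in Wilson disease, accumulate copper.

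The study has 9 samples in 3 groups of 3, all from C57BL/6 mice and all exposed to copper chloride for 24 hours: KO-ATP7B (genotype Atp7b-/-, ATP7B lentivirus), KO-GFP (genotype Atp7b-/-, GFP lentivirus) and WT-GFP (wild type, GFP lentivirus). Primary hepatocytes were first reprogrammed to liver progenitors with growth factors and small molecules, transduced, and redifferentiated for 3 weeks. The labels state the copper dose as 100 µM in the protocols and with the same figure in mM in the treatment field. They name the wild-type cells with GFP in the titles and with ATP7B in the growth protocol. The sources used here give neither the age of the mice nor the promoter of the vectors.

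The count table has 9 numbered columns without group names. Files of single samples tied 2 of these columns to WT-GFP replicates 1 and 2. The other 7 were not used, since only the order of the columns could have assigned them to samples. The values below therefore describe wild-type, copper-exposed cells in 2 libraries, and neither the knockout, the ATP7B vector nor the effect of copper is compared. The labels do not state if replicates are separate cultures, so SDs measure a spread between libraries that may be technical. The p-values set the difference between the libraries against counting error alone, and a call says only that 2 libraries differed by more than that.

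The libraries held 18532457 counts in replicate 1 and 17821682 counts in replicate 2. A count of 0 allowed up to 0.162 CPM (the count scaled to library total) in replicate 1 and 0.168 CPM in replicate 2, and intervals and floors cover counting error only. The 7 hepatocyte markers were all at 10 FPKM or more (fragments per kilobase, scaled to library total), with a median of 418 FPKM. So were 5 of 6 progenitor and biliary markers, with a median of 181 FPKM, the exception being Epcam at 2.04 FPKM. With exon lengths from GENCODE, 4 of these 6 reached 10 FPKM. The hepatocyte markers summed to 2963 FPKM in replicate 1 and 2725 FPKM in replicate 2, and the progenitor and biliary markers to 1651 and 1602 FPKM. All 4 endothelial, all 4 stellate and all 3 lymphocyte markers were below 1 FPKM, and the summed level of each of these lists was at most 0.702 FPKM. Of 4 macrophage markers Adgre1 and Clec4f had no counts, while Cd68, a lysosomal protein gene, was at 17.1 ± 3.34 FPKM (SD, n = 2). Csf1r, a macrophage growth factor receptor gene, was at 2.15 ± 0.249 FPKM, and the 4 markers summed to 16.7 FPKM in replicate 1 and 21.8 FPKM in replicate 2. Of 3 mesothelial markers Msln was at 1159 ± 20.7 FPKM, Upk3b at 3.06 ± 0.393 FPKM and Wt1 at 0.266 ± 0.0933 FPKM. The lowest listed hepatocyte marker was Serpina1a at 17.1 ± 3.12 FPKM. Among hepatocyte genes outside the list, Apob had 50889 and 47943 counts in replicates 1 and 2. Arg1 had 13 and 7 counts, and Ass1 had 35 and 41. Both libraries thus held transcripts of hepatocyte and of progenitor and biliary markers, and Msln stood above every marker of both of those lists. Whether single cells carried both cannot be told from bulk libraries. The part of this mixture in the levels below was not tested. In such bulk libraries fewer cells of a type and less RNA per cell cannot be told apart.

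All 10 genes were detected in both libraries, and their levels spanned 97.3-fold, or 41.7-fold with exon lengths from GENCODE. Pdha1, an E1 gene of pyruvate dehydrogenase, stood highest, and the enzymes that build and attach lipoate lowest, under both sets of lengths. The other E1 gene, Pdhb, stood next by deposited length, and beside Dld by GENCODE lengths (37.0 and 36.4 FPKM). At a level of 10 FPKM or more stood 7 of the 10, against 27.1% of all symbols and 38.1% of the 15545 symbols with a count. The other 3 were Lias, Lipt2 and Lipt1, all between 1 and 10 FPKM. Below 1 FPKM stood 0 of the 10, against 51.2% of all symbols and 31.3% of those with a count. The median level of the 10 genes was 28.5 FPKM, and the median of all symbols with a count was 5.66 FPKM. Their joint share of counts was 0.103% in replicate 1, with a 95% Wilson interval of 0.101 to 0.104%. In replicate 2 it was 0.101%, with an interval of 0.10 to 0.103%.

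**Figure D1:**
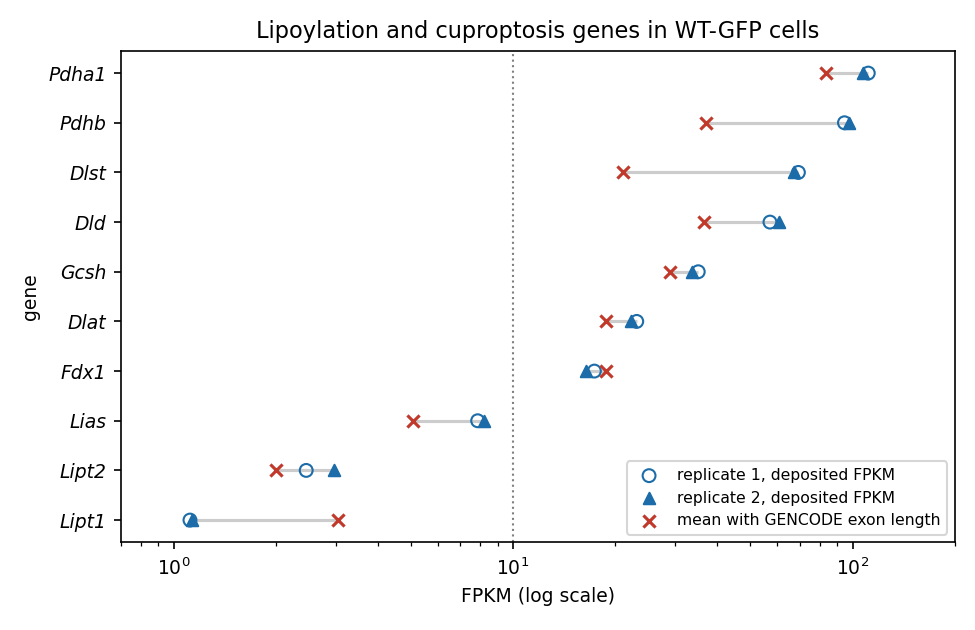
Level of each gene in FPKM (log axis) in WT-GFP replicate 1 (open circles) and replicate 2 (triangles), with the mean recomputed with GENCODE exon lengths (crosses); the dotted line marks 10 FPKM. Replicates lie close together, whereas the choice of gene length moves Dlst to 21.1 FPKM and places Lipt1 above Lipt2.

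The E1 component of the pyruvate dehydrogenase complex, which decarboxylates pyruvate, had the highest levels by deposited length. Pdha1, the E1 alpha subunit gene (ENSMUSG00000031299.10, protein-coding, chromosome X, 160122209 to 160138413, minus strand, GRCm38), was at 111 FPKM in replicate 1 and 108 FPKM in replicate 2. Pdhb, the E1 beta subunit gene (ENSMUSG00000021748.9, protein-coding, chromosome 14, 8165996 to 8173025, minus strand), was at 94.7 FPKM in replicate 1 and 97.7 FPKM in replicate 2. The subunits are present in equal number in the protein complex, and the level of Pdha1 was 1.14 ± 0.0513 times that of Pdhb (SD of the FPKM ratio, n = 2). With exon lengths from GENCODE the ratio was 2.26. Exons of Map3k15 on the opposite strand overlap 603 bases of those of Pdha1. The library kit was stranded, but no source used here gives the strand setting of the counting, so reads of that gene could have been counted for Pdha1.

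The E2 subunits carry the lipoyl group itself. Dlst, the E2 gene of the 2-oxoglutarate dehydrogenase complex of the TCA cycle (ENSMUSG00000004789.10, protein-coding, chromosome 12, 85110833 to 85134845, plus strand), was at 69.3 FPKM in replicate 1 and 67.1 FPKM in replicate 2. Dlat, the E2 gene of the pyruvate dehydrogenase complex and the lipoylated protein most studied in cuproptosis (ENSMUSG00000000168.9, protein-coding, chromosome 9, 50634633 to 50659780, minus strand), was at 23.1 FPKM in replicate 1 and 22.3 FPKM in replicate 2. Dlat was thus the lowest of the dehydrogenase subunit genes among the 10, and both libraries of Dlst lay above both of Dlat. Per library, the Pdha1 level was 4.82 ± 0.0205 times and the Dlst level 3.00 ± 0.0131 times that of Dlat. The Pdha1 ratio was 4.47 with GENCODE exon lengths, and the Dlst ratio was 1.13. For Dlst the deposited FPKM imply a length of 2966 bases, and GENCODE exons of the gene cover 9559 bases.

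Dld encodes dihydrolipoamide dehydrogenase, the E3 subunit that reoxidises the lipoyl group in all these complexes. Dld (ENSMUSG00000020664.10, protein-coding, chromosome 12, 31331277 to 31351453, minus strand) was at 57.1 FPKM in replicate 1 and 60.7 FPKM in replicate 2. Its level was 2.60 ± 0.184 times that of Dlat and 0.865 ± 0.0574 times that of Dlst. With GENCODE exon lengths the ratio to Dlat was 1.94 and that to Dlst 1.72, so the order of Dld and Dlst depends on the gene model.

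Gcsh encodes the glycine cleavage H protein, which carries lipoate in glycine breakdown and serves as the platform on which lipoate is made. Gcsh (ENSMUSG00000034424.5, protein-coding, chromosome 8, 116981810 to 116993537, minus strand) was at 35.1 FPKM in replicate 1 and 33.6 FPKM in replicate 2. The other subunit genes of the glycine cleavage system stood far apart. Gldc, the glycine decarboxylase gene, was at 104 ± 3.91 FPKM (SD, n = 2), 3.03 ± 0.0179 times the level of Gcsh. Amt, the aminomethyltransferase gene of the same system, was at 4.10 ± 0.458 FPKM, and the Gcsh level was 8.45 ± 1.21 times that of Amt. With GENCODE exon lengths these ratios were 2.22 and 8.52.

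Fdx1 encodes ferredoxin 1, a mitochondrial iron-sulfur electron carrier that is needed for lipoylation in human cells and was found there as a gene required for cuproptosis. Fdx1 (ENSMUSG00000032051.9, protein-coding, chromosome 9, 51943306 to 51963556, minus strand) was at 17.4 FPKM in replicate 1 and 16.5 FPKM in replicate 2. Its paralog Fdx2, which supplies electrons to iron-sulfur cluster assembly and is listed under the older symbol Fdx1l, was at 26.7 ± 0.291 FPKM, and the Fdx1 level was 0.633 ± 0.0309 times that of Fdx2. With GENCODE exon lengths the ratio was 1.28, so the order of the ferredoxins depends on the gene model. Fdxr, the reductase that passes electrons to both, was at 6.91 ± 0.172 FPKM.

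The enzymes that build and move lipoate were the lowest of the 10. Lias, lipoic acid synthase, which inserts the sulfur atoms (ENSMUSG00000029199.11, protein-coding, chromosome 5, 65391497 to 65410693, plus strand), was at 7.87 FPKM in replicate 1 and 8.22 FPKM in replicate 2. Lipt2, the octanoyltransferase that loads the H protein (ENSMUSG00000030725.4, protein-coding, chromosome 7, 100159277 to 100161365, plus strand), was at 2.46 FPKM in replicate 1 and 2.97 FPKM in replicate 2. Lipt1, the transferase that moves lipoate from the H protein to the E2 subunits (ENSMUSG00000037216.5, protein-coding, chromosome 1, 37871738 to 37876228, plus strand), was at 1.12 FPKM in replicate 1 and 1.13 FPKM in replicate 2. Lias stood above both transferases in both libraries, by 2.98 ± 0.304 times over Lipt2 and 7.15 ± 0.158 times over Lipt1. With GENCODE exon lengths these ratios were 2.53 and 1.67, so the size of the gap to Lipt1 depends on the gene model.

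The low transferase levels rest on few reads. Lipt2 had 56 and 65 counts, or 3.02 CPM (95% exact Clopper-Pearson interval 2.28 to 3.92) in replicate 1 and 3.65 CPM (2.81 to 4.65) in replicate 2. Lipt1 had 115 and 112 counts, or 6.21 CPM (5.12 to 7.45) in replicate 1 and 6.28 CPM (5.17 to 7.56) in replicate 2. The deposited length of Lipt1 is 5552 bases, and its GENCODE exons cover 2051. With GENCODE lengths the mean level of Lipt1 was 3.04 FPKM, that of Lipt2 2.01 FPKM and that of Lias 5.08 FPKM, so the transferases changed places and Lias remained above both. Exons of Mitd1 on the opposite strand overlap 262 bases of Lipt1, and those of Gm43311 overlap 43 bases of Lias, with the same limit on strand as for Pdha1.

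In the order Pdha1, Pdhb, Dlst, Dld, Gcsh, Dlat, Fdx1, Lias, Lipt2, Lipt1, the replicate values of neighbouring genes did not overlap for any of the 9 pairs. The closest were Pdha1 and Pdhb, whose nearest values were 108 and 97.7 FPKM, and Dlst and Dld, whose nearest values were 67.1 and 60.7 FPKM. The coefficient of variation between the libraries was 0.896% to 13.3%, the highest being that of Lipt2. Under GENCODE exon lengths the order was Pdha1, Pdhb, Dld, Gcsh, Dlst, Dlat, Fdx1, Lias, Lipt1, Lipt2, with Dlat and Fdx1 equal at 18.7 FPKM. By these lengths Pdhb and Dld were at 37.0 and 36.4 FPKM, close enough that their replicate values overlap. Pdha1 at the top, and Lias and the transferases at the bottom, held their places under both sets of lengths, apart from the exchange of Lipt1 and Lipt2.

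No difference between the libraries was detected for any of the 10 genes. By a two-sided exact binomial test on the counts, with Benjamini-Hochberg adjustment over 12302 genes, 0 of 10 passed an adjusted p of 0.05 and 1 of 10 had an unadjusted p below 0.05. TMM-scaled library sizes also gave 0 of 10. Over all genes tested, 14.8% passed, 8.38% higher and 6.38% lower in replicate 2, or 836 higher and 958 lower with TMM in place of 1031 and 785. Chi-square per degree of freedom was 5.25 over these genes, and the libraries thus differed by more than counting error across genes. The share that passed rose with the mean count, from 5.29% at 10 to 100 counts to 9.11% at 100 to 1000 and 26.7% at 1000 or more. From low to high, these classes held 1, 3 and 6 of the 10 genes. The test compares 2 libraries of 1 group and not conditions.

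Dld had the lowest p of the 10, with 2465 counts in replicate 2 and 2410 in replicate 1, a log2 ratio of CPM of 0.09 (95% exact interval 0.01 to 0.17, adjusted p = 0.138, exact binomial test). Pdha1, with the most counts, had 5480 in replicate 2 and 5886 in replicate 1, which is -0.05 on the log2 scale (-0.10 to 0.01, adjusted p = 0.265 by the exact binomial test). Fdx1 had 1009 and 1107 counts in replicates 2 and 1, a log2 ratio of -0.08 (-0.20 to 0.05). For Lipt2 the interval ran from -0.27 to 0.81, so its few counts left a wide range of differences between the libraries not excluded. Of the 10 genes 5 were nominally higher and 5 lower in replicate 2, and their median log2 ratio was -0.01, beside 0.01 over all genes tested. Among genes with a mean of 1000 counts or more, which include 6 of the 10, the SD of the log2 ratio was 0.11.

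**Figure D2:**
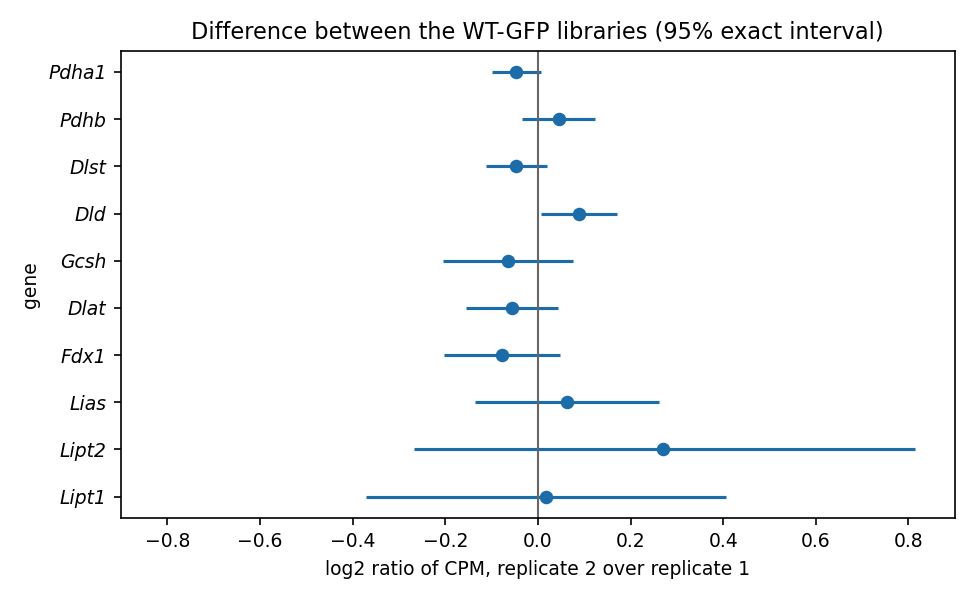
Log2 ratio of CPM, replicate 2 over replicate 1 of WT-GFP, for each gene (points) with its 95% exact interval from the counts (lines). The interval includes 0 for every gene but Dld (0.01 to 0.17), and it is widest for Lipt2 (-0.27 to 0.81).

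The remaining genes of the pathway were read from 6 lists, which give 61 genes, all found in the table. At 10 FPKM or more stood 41 of them, and 33 with GENCODE exon lengths. By deposited length, 27.1% of all symbols and 38.1% of those with a count reached this level. Between the libraries 14.8% of all genes tested differed, with 5.29% at 10 to 100 counts, 9.11% at 100 to 1000 and 26.7% at 1000 or more. These shares are the background for the counts of each list below by deposited length and between the libraries. For GENCODE lengths no share over all symbols was computed, so counts by those lengths have no background here. Of the lists, the TCA cycle enzymes had the highest median, 71.5 FPKM (34.05 by GENCODE lengths, also the highest), and all 14 reached 10 FPKM. The highest by deposited length was Mdh2 (malate dehydrogenase) at 233 ± 18.7 FPKM. The lowest by deposited length were the succinate-CoA ligase subunit genes Suclg2 at 24.9 ± 1.01 FPKM and Sucla2 at 32.2 ± 1.51 FPKM. GENCODE lengths put Sdhd, a succinate dehydrogenase subunit gene, highest at 142 FPKM, and Suclg1 and Sucla2 lowest. Between the libraries 1 of the 14 was higher and 3 were lower in replicate 2, among them Mdh2 at -0.16 on the log2 scale (adjusted p = 1.9e-07, exact binomial test). With TMM 0 were higher and 3 lower. Of all genes with a mean of 1000 counts or more, as each of the 14 had, 26.7% passed the same test without TMM. The Dlat level lay below that of every gene in this TCA cycle list, and with GENCODE exon lengths it lay above that of Suclg1 (18.7 against 16.7 FPKM).

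Among 9 partners in the lipoylated complexes, 5 reached 10 FPKM and the median was 13.1 FPKM, whereas 4 did so and the median was 8.42 FPKM by GENCODE lengths. Gldc, given above, was the highest. Ogdh, the E1 gene of the 2-oxoglutarate dehydrogenase complex, followed at 32.3 ± 2.23 FPKM, and the Dlst level was 2.11 ± 0.0978 times that of Ogdh. This ratio turned round to 0.486 with GENCODE exon lengths. The lowest were Ogdhl, an Ogdh paralog, at 3.82 ± 0.321 FPKM (Amt in its place by GENCODE lengths) and Dhtkd1, the E1 gene of the 2-oxoadipate dehydrogenase, which had 3 counts in each library, at the level a count of 0 allows. By the exact binomial test, Gldc and Ogdh were the 2 of 8 tested partners that were lower in replicate 2. Their log2 ratios were -0.08 (adjusted p = 0.0152) and -0.14 (adjusted p = 0.000157) by that test. Both had a mean of 1000 counts or more, the class in which 26.7% of genes passed.

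Of 14 genes that supply iron-sulfur clusters, on which Lias depends, 11 reached 10 FPKM, with a median of 26.7 FPKM. With GENCODE exon lengths 7 did so, and the median was 9.61 FPKM. The mitochondrial Hsp70 gene Hspa9 was at 286 ± 10.5 FPKM and the scaffold gene Iscu at 54.5 ± 2.53 FPKM. Lyrm4, which stabilises the cysteine desulfurase, was at 6.05 ± 1.07 FPKM and Iba57, a late-acting assembly factor, at 2.18 ± 0.219 FPKM. In this list 1 gene, Hspa9, was higher in replicate 2 and 0 were lower. Hspa9 was also in the class of 1000 counts or more.

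Mitochondrial fatty acid synthesis, the source of the octanoyl chain, had 3 of 7 genes at 10 FPKM or more and a median of 7.24 FPKM. With GENCODE exon lengths 2 reached that level, and the median was 5.12 FPKM. Ndufab1, the mitochondrial acyl carrier protein that is also a respiratory complex I subunit, was at 72.2 ± 2.98 FPKM, or 10.1 FPKM by the GENCODE lengths. Hsd17b8, listed as H2-Ke6, was at 34.6 ± 5.18 FPKM. The lowest by deposited length were the ketoacyl synthase gene Oxsm at 3.28 ± 0.269 FPKM and the reductase gene Mecr at 6.00 ± 0.343 FPKM. By GENCODE lengths Hsd17b8 stood above Ndufab1, and Cbr4 was lowest at 2.06 FPKM. Hsd17b8 and Cbr4 were lower in replicate 2, as 2 of the 7 genes tested.

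Regulators of the dehydrogenases were moderate in level, with 5 of 11 at 10 FPKM or more and a median of 7.93 FPKM. With GENCODE exon lengths 3 of 11 reached that level, and the median was 5.94 FPKM. The highest by deposited length were the kinase genes Bckdk (17.8 ± 0.0388 FPKM), whose product inhibits branched-chain 2-oxoacid dehydrogenase, and Pdk1 (16.2 ± 2.27 FPKM), whose product inhibits pyruvate dehydrogenase. By GENCODE lengths Pdpr, a regulatory subunit gene of pyruvate dehydrogenase phosphatase, was highest at 17.9 FPKM. The lowest were the opposing phosphatase genes Ppm1k (1.62 ± 0.0685 FPKM) and Pdp1 (2.62 ± 0.214 FPKM). Pdk1 was the 1 of 11 that differed, lower in replicate 2 at -0.29 on the log2 scale by the exact binomial test (adjusted p = 1.48e-07). Its mean count was also in the class of 1000 or more.

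Of 6 further genes named in cuproptosis work 3 reached 10 FPKM, with a median of 10.3 FPKM. With GENCODE exon lengths 3 also did so, and the median was 9.20 FPKM. The copper importer gene Slc31a1 was at 33.8 ± 0.543 FPKM and Cdkn2a, a cell cycle inhibitor locus, at 26.9 ± 0.179 FPKM. Mtf1, a metal-responsive transcription factor gene, was at 4.64 ± 0.235 FPKM. Atp7b was at 7.06 ± 0.911 FPKM and was the 1 of 6 that differed between the libraries, lower in replicate 2.

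**Figure D3:**
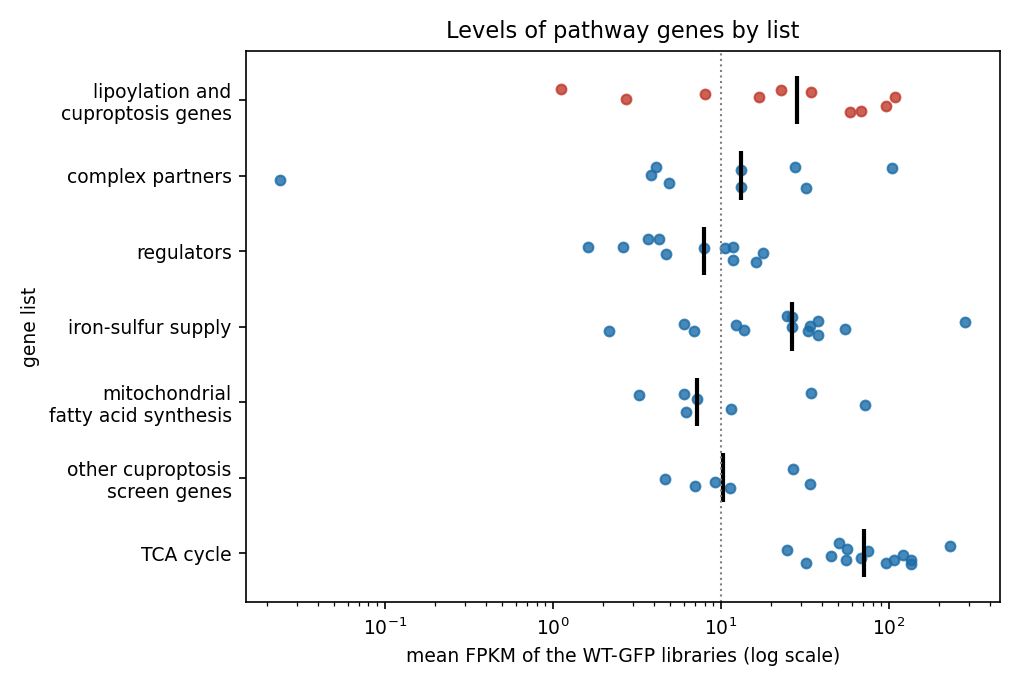
Mean FPKM of the 2 WT-GFP libraries (log axis) for each gene of the 10 lipoylation and cuproptosis genes (red, top) and of 6 lists of related genes (blue); black bars are list medians and the dotted line marks 10 FPKM. The 10 genes span 1.12 to 109 FPKM around a median of 28.5 FPKM, and the TCA cycle genes have the highest median, 71.5 FPKM.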

How the data were processed

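The authors deposited raw counts per gene symbol for the series and FPKM per sample for WT-GFP replicates 1 and 2, per the file headers. HISAT2 2.2.1.0 is named in the submitters' processing notes, as are mm10 and hg38, with no role for either build. For the counter, annotation, strand setting and multi-mapping reads, the sources used here give nothing. Of 9 count columns, 7 were not used because no name ties them to a sample. The planned comparisons between groups by edgeR's quasi-likelihood test were therefore not run.

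Lengths implied by counts and FPKM were whole within 0.01 bp in 100% of cases, so the FPKM are the same counts per length and library total. Counts of the libraries (18532457 and 17821682) were compared per gene by a two-sided exact binomial test over the 12302 genes averaging 10 counts or more, adjusted by the Benjamini-Hochberg method (threshold 0.05). Log2 ratios have 0.5 added to each count. The method was tested on simulated data with counting error alone, so that test does not cover the larger spread between these libraries. Values at or above 10 FPKM and below 1 FPKM were counted. GENCODE M21 (GRCm38) gave positions and merged exon lengths. Hsd17b8 and Fdx2 were matched through RefSeq synonyms (GRCm38.p6). Python 3.11.15, SciPy 1.17.1 and edgeR 4.0.16 (TMM factors) were used. Alternatives were TMM scaling, other filters, TPM, GENCODE lengths, other FPKM thresholds and leaving out each replicate. All 10 genes are named, and for each other list the highest 2 and lowest 2, except 1 gene that is not reported here. Genes and lists were chosen with earlier results of these data known. Atp7b, Cbr4, Suclg1, Sdhd, Pdpr, Amt, Fdx2, Fdxr, Apob, Arg1, Ass1 and the markers given by name are named beside that rule, after their values were seen.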

Additional observations from a re-analysis of the deposited data

How the results depend on the processing

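The median level of the 10 genes was 28.5 FPKM, 74.0 when the FPKM were rescaled to TPM, and 19.9 FPKM with GENCODE exon lengths. Rescaling to TPM multiplies every gene of a library by the same number, and the GENCODE lengths cover more bases for 8 of the 10 genes. Leaving out each replicate in turn gave medians of 27.9 to 29.1 FPKM. The number of the 10 genes at or above the threshold was 7, and between 6 and 8 under thresholds of 5 and 20 FPKM, TPM, GENCODE lengths and single replicates. For the other pathway genes it was 41, and between 30 and 54 under the same alternatives. The count of genes differing between the libraries was 1816, and 1794 with TMM, 1680 with no filter and 1781 with a mean of at least 100 counts. None of the 10 genes passed under those settings that kept it, Lipt2 being removed by the last. DESeq2, RLE factors, the unfiltered edgeR fit and leaving out replicates of each group were not run, since they belong to the comparisons between groups. No paired analysis was possible because the libraries that could be assigned to samples are all of 1 group.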
